A study of Mus musculus with 20 samples.

Results

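The 7 chemokine genes that neutrophils can make, Cxcl1, Cxcl2, Cxcl10, Ccl3, Ccl4, Ccl6 and Ccl9, were followed by their symbols through 20 RNA-seq libraries of mouse bone marrow neutrophils. They are 7 of the 24421 genes with counts in these data. All mice were female. WT mice were purchased C57BL/6J animals without a floxed allele or Cre, and Bmal1 Mye-/- mice (KO below) were bred in house and carried floxed Bmal1 with Cre driven by the Lyz2 promoter, which acts in myeloid cells and not in neutrophils alone. Breeding origin, Cre and loss of Bmal1 therefore cannot be told apart in any difference between genotypes. Mice were untreated or received 5% imiquimod cream (IMQ), a Toll-like receptor agonist used to induce lupus-like disease, on both ears 3 times per week for 6 weeks from 8 to 10 weeks of age. Each of the 4 groups held 5 libraries: untreated WT, untreated KO, WT + IMQ and KO + IMQ. Neutrophils had been enriched by removal of other cells with antibody-coated beads.

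Chemokines are small secreted proteins that bind receptors on leukocytes and guide their movement. The CXC members Cxcl1 and Cxcl2 bind Cxcr2 and attract neutrophils, and Cxcl10, an interferon-inducible ligand of Cxcr3, attracts activated T cells. Of the CC members, Ccl3 and the rodent chemokines Ccl6 and Ccl9 bind Ccr1, and these and Ccl4 act mainly on monocytes, lymphocytes or other leukocytes. In marrow, neutrophils are held back through Cxcl12 and Cxcr4 and drawn out through Cxcr2 and its ligands.

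On mm10, 3 members lay on chromosome 5 and 4 on chromosome 11, all protein-coding. Cxcl1 spans chr5:90891241-90893115 and Cxcl2 spans chr5:90903871-90905938, both on the plus strand and 10.8 kb apart. Cxcl10, at chr5:92346638-92348889 on the minus strand, lies inside the span of Art3, which is on the plus strand. On chromosome 11, Ccl9 (chr11:83572919-83578636) and Ccl6 (chr11:83587882-83593087) are on the minus strand 9.2 kb apart, and Ccl3 (chr11:83647844-83649355, minus) and Ccl4 (chr11:83662584-83664683, plus) are 13.2 kb apart. Ccl6 overlaps the plus-strand transcript E230016K23Rik. The strand setting of the counting is not given in the sources used here, so reads of Cxcl10 and Ccl6 and of these opposite-strand genes may not be separated. Of all 50-base windows in the transcripts of a member, 5.84% of those of Cxcl2 also occur in Cxcl3, 3.59% of those of Cxcl10 in Art3 and 1.97% of those of Ccl9 occur in other genes, while Cxcl1, Ccl3, Ccl4 and Ccl6 share 0.

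RefSeq promoters (GRCm38.p6) were matched for 6 of the 7 members, all but Ccl4. The 250 bases upstream of 2 pairs of neighbouring genes are shown, because the genes of each pair differed most in level or direction: Cxcl1 was near 0 where Cxcl2 was high, and Ccl6 and Ccl9 moved in opposite directions with IMQ in KO. They are written 5′ to 3′ on the strand of the gene, and capitals mark matches to 5 short motifs. The windows are chr5:90890995-90891244 for Cxcl1, chr5:90903649-90903898 for Cxcl2, chr11:83593088-83593337 for Ccl6 and chr11:83578637-83578886 for Ccl9.
Cxcl1: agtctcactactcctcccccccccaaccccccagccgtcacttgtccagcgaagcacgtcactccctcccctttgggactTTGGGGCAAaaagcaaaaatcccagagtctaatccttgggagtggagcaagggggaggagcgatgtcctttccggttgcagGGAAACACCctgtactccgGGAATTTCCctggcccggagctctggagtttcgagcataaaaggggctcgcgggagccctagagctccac
Cxcl2: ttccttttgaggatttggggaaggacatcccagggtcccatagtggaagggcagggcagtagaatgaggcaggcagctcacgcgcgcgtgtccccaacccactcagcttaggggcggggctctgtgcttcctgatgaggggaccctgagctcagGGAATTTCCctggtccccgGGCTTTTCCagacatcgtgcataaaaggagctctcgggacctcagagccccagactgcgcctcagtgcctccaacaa
Ccl6: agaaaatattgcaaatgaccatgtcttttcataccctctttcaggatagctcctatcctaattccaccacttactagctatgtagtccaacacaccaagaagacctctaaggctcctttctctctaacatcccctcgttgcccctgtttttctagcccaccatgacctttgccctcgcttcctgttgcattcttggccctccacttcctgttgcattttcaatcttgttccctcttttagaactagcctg
Ccl9: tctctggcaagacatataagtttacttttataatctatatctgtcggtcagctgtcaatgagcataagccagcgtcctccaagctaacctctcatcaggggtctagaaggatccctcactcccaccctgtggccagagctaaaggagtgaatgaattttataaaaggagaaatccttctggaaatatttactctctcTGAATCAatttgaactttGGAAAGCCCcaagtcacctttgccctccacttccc

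Cxcl1 and Cxcl2 each held 2 matches to the NF-kB motif (GGNNTTTCC, both strands), 1 of which had the same letters in both genes (GGAATTTCC). That match lay at bases -70 to -62 of Cxcl1 and at -96 to -88 of Cxcl2, where -1 is the base before the RefSeq start site. The gene spans given above, from another annotation, begin inside these windows, at 90891241 for Cxcl1 and 90903871 for Cxcl2. Positions counted from those starts would differ, so the positions in the 2 genes were not compared. Ccl9 held 1 match to this motif and 1 to the AP-1 motif (TGANTCA), while the Ccl6 window held none of the 5 motifs. The NF-kB motif was present in 4 of the 6 member promoters (Cxcl1, Cxcl2, Cxcl10 and Ccl9) and in 4.93% of 32851 promoter windows of this length. The interferon-response motif (GAAANNGAA) was present in Cxcl10 and Ccl3 and in 7.13% of all windows, AP-1 in Cxcl10 and Ccl9 and in 6.75%, and the C/EBP motif (TTGCNNCAA) in Cxcl1 and in 1.74%. The E-box CACGTG, the element that BMAL1 with CLOCK can bind, was in 0 of the 6 windows and in 6.02% of all windows. No match overlapped a match to another motif. A match describes letters only and was not tested as a binding site.

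Each library had between 30782166 and 92613500 reads on genes, and 51.9 to 57.8% of the reads accounted for lay on no annotated feature. Levels are given as CPM, the reads of a gene relative to the reads on all genes of the library, scaled by the TMM factors of edgeR, which ranged from 0.855 to 1.38. Lyz2, into which the Cre is inserted, was between 2465 and 12031 CPM in the 10 WT libraries and between 58.8 and 177 in the 10 KO libraries. Lyz2 thus separated the labelled genotypes in all 20, which bears on the Cre insertion and not on the floxed Bmal1 allele. Arntl, the gene for BMAL1, was low in all groups, with 0.895 to 1.71 CPM in untreated WT, 0.468 to 1.1 in untreated KO, 0.561 to 1.87 in WT + IMQ and 0.337 to 1.52 in KO + IMQ. Arntl overlapped between genotypes in both conditions, so these counts did not show the deletion in each KO library. Counts over the whole gene do not separate transcripts with and without the deleted exon. Neutrophil markers summed to 71023 to 158366 CPM with 9 of 10 in the files (all but Ly6g), and dendritic, B-lineage and T and NK markers each summed to no more than 25 CPM. Macrophage markers summed to 230 to 535 CPM, basophil and mast cell markers to 402 to 1550, eosinophil markers to 21.6 to 207 and erythroid markers to 15.2 to 534. The macrophage sum was mostly Slc40a1 (mean 329 CPM over all libraries, next Adgre1 at 26.2). The basophil and mast cell sum was mostly Hdc (mean 1111 CPM, next Prss34 at 3.07). Neither sum therefore measures the share of those cells. Of the 8 erythroid genes, the 4 globin genes were at 0 throughout, while Slc4a1 reached 370 CPM. The erythroid sum thus leaves out globin RNA, and the reason for the 0 counts was not tested. On the first principal component of all tested genes (35% of the variance), WT + IMQ replicate 5 lay within the range of untreated WT at -37.1 and KO + IMQ replicate 2 within that of untreated KO at -10.7, whereas WT + IMQ replicate 3 lay farthest from the untreated groups at 92.5. KO + IMQ replicate 1 stood apart on the second component at -100 and had the largest TMM factor.

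Per kilobase of exon, the members ranked Ccl6, Cxcl2, Ccl3, Ccl4, Ccl9, Cxcl10 and Cxcl1 in untreated WT, with mean levels of 868, 89.1, 40.9, 8.09, 5.66, 0.884 and 0.0333 CPM per kb. Ccl6 thus dominated the RNA of these chemokines: it made up 81.9 to 90.2% of the summed CPM of the 7 genes in untreated WT, 83 to 91.1% in untreated KO, 63.6 to 94.3% in WT + IMQ and 52.2 to 85.9% in KO + IMQ. The sum of the 7 genes had a median of 1603 CPM in untreated WT, 1511 in untreated KO, 1092 in WT + IMQ and 674 in KO + IMQ. In bulk samples, fewer cells expressing a gene and less of its RNA per cell cannot be told apart.

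**Figure D1:**
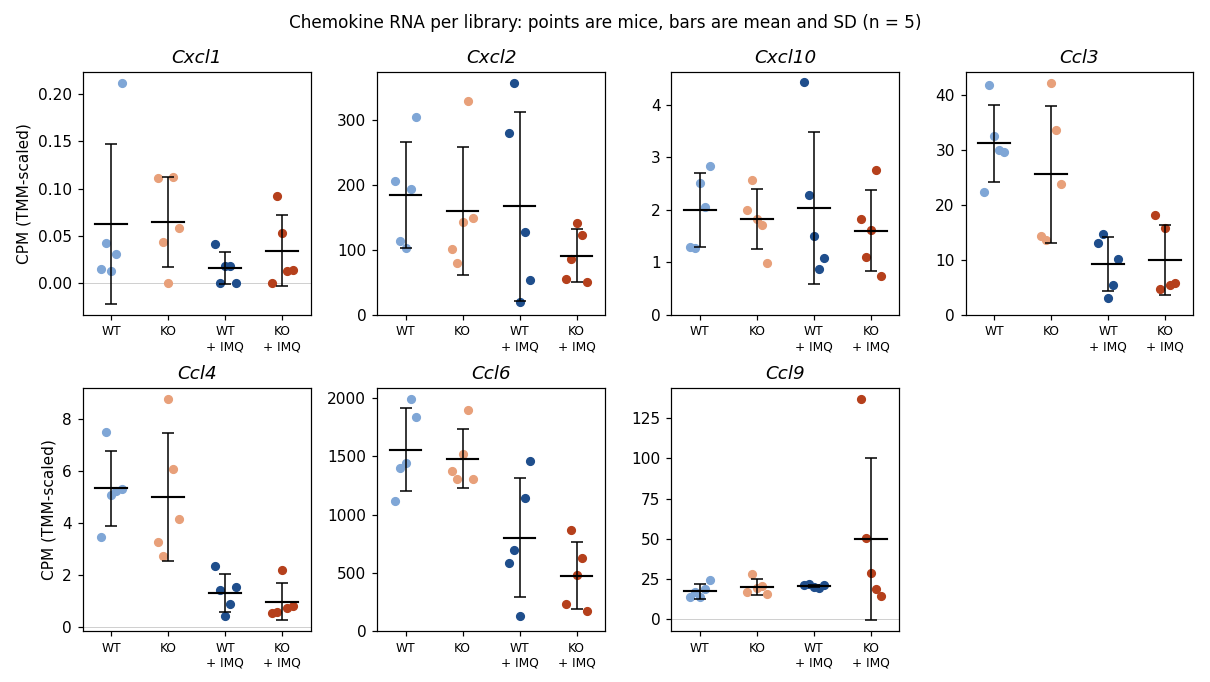
CPM (TMM-scaled, linear axes that differ between panels) of the 7 chemokine genes in each of the 20 libraries, with the mean (line) and SD (bars) of each group of 5. Ccl3 and Ccl4 sit lower in the IMQ groups than in the untreated ones, Ccl6 is lowest in KO + IMQ at 476 CPM on average, and the mean of Ccl9 in KO + IMQ is carried by libraries at 137 and 50.3 CPM.

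The comparison of KO with WT asked whether loss of Bmal1 in myeloid cells altered neutrophil chemokine RNA, with and without IMQ. A low-count filter kept 14030 genes and 6 of the 7 members, all but Cxcl1. The counts were tested by quasi-likelihood in edgeR, and p-values were adjusted over all tested genes by the Benjamini-Hochberg method, with a threshold of 0.05. By this test, 0 of the 6 members differed between genotypes in untreated mice, where 29 genes did (0.207%), and 0 in IMQ-treated mice, where 41 did (0.292%). At an unadjusted p under 0.05, 0 members passed in untreated mice and 1 in IMQ-treated mice, which was Ccl9. DESeq2 and limma also called 0 members in both.

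IMQ against untreated asked how prolonged treatment altered these genes in each genotype. In WT, 2 of the 6 tested members passed, Ccl3 and Ccl4, both lower with IMQ, against 3.95% of all tested genes. In KO, 4 of 6 passed: Ccl3, Ccl4 and Ccl6 fell and Ccl9 rose, against 23.5% of all tested genes. With the replicate number as a block over all 4 groups, 3 of 6 passed in KO, since Ccl9 did not (1.07, adjusted p = 0.0871). In that fit 0 of 6 passed in WT. The median log2 fold change of the 6 members was -0.55 in WT and -1.08 in KO, where the medians over all tested genes were 0.03 and 0.02. The difference between genotypes in the response to IMQ, tested as an interaction, called 0 members and 0 of 14030 genes (0%) by edgeR, DESeq2 and limma, while 0 members and 721 genes had an unadjusted p under 0.05 by edgeR. A call in KO and not in WT was therefore not shown to differ between the genotypes.

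**Figure D2:**
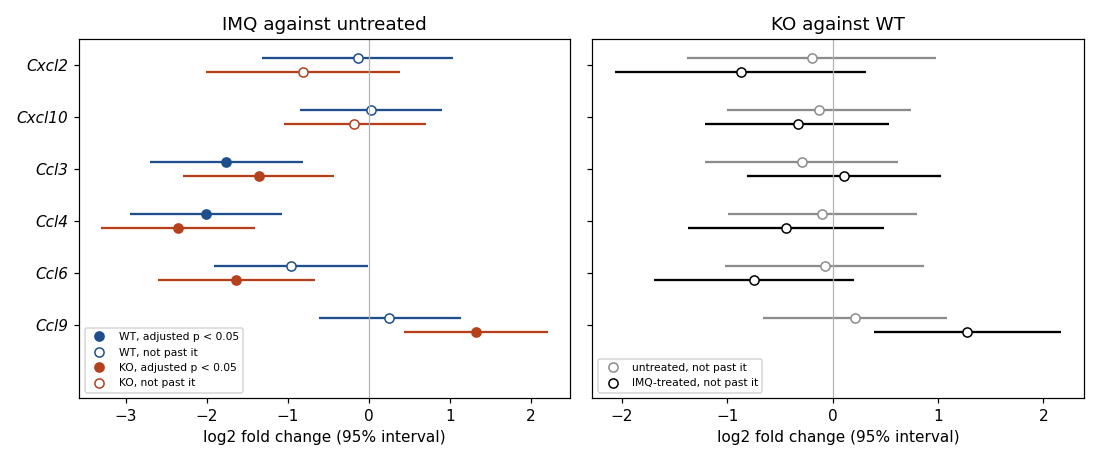
Log2 fold changes with 95% intervals from edgeR for the 6 tested chemokine genes, IMQ against untreated on the left and KO against WT on the right. Filled points have an adjusted p under 0.05: they are Ccl3 and Ccl4 in WT and Ccl3, Ccl4, Ccl6 and Ccl9 in KO, and no point on the right is filled.

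Of the ligands of Cxcr2, Cxcl1 was barely detected, with 0 to 14 reads per library. It was at 0.0148, 0.0425, 0.0122, 0.0303 and 0.212 CPM in untreated WT and at 0.111, 0.0432, 0, 0.112 and 0.0583 in untreated KO. With IMQ it was at 0.0416, 0, 0.0175, 0.0176 and 0 CPM in WT and at 0, 0.092, 0.0532, 0.013 and 0.0132 in KO. The groups overlapped in all comparisons. A count of 0, seen in 4 libraries, allows up to 0.0389 to 0.101 CPM (3 reads, for counting error only). Two-sided exact permutation tests on log2(CPM + 0.1) gave differences of 0.09 (adjusted p = 0.833) for KO against WT untreated and 0.19 (adjusted p = 0.497) with IMQ. For IMQ against untreated they gave -0.39 (adjusted p = 0.497) in WT and -0.29 (adjusted p = 0.497) in KO, over 4 tests that cannot go below 0.00794 each before adjustment.

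Cxcl2, the other neutrophil attractant, was abundant and the most variable of the 6 tested members. Its levels were 206, 114, 103, 194 and 304 CPM in untreated WT and 101, 80, 143, 329 and 149 in untreated KO. They were 279, 357, 20.1, 127 and 53.7 CPM in WT + IMQ and 55.5, 85.5, 141, 123 and 50.5 in KO + IMQ. All groups overlapped, and within WT + IMQ the highest library was 17.7 times the lowest. The log2 fold change of KO against WT was -0.20 ± 0.57 (SE, adjusted p = 1) in untreated mice, with a 95% interval of -1.38 to 0.98, and -0.87 ± 0.57 (adjusted p = 0.343) with IMQ, with an interval of -2.07 to 0.32. For IMQ it was -0.14 ± 0.57 (adjusted p = 0.917; interval -1.32 to 1.04) in WT and -0.81 ± 0.57 (adjusted p = 0.292; interval -2.01 to 0.38) in KO. The spread between mice thus left each of these intervals wide, and no difference was shown. The pooled within-group SD of Cxcl2 was 1.05 on the log2 CPM scale, larger than that of 92.6% of tested genes, whose median was 0.38.

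Cxcl10, the Cxcr3 ligand, was low in all groups and did not pass in any comparison. It was at 1.29, 1.27, 2.5, 2.06 and 2.83 CPM in untreated WT, 2, 2.57, 1.82, 1.7 and 0.992 in untreated KO, 4.43, 2.27, 1.49, 0.88 and 1.08 in WT + IMQ, and 1.82, 1.1, 1.61, 2.75 and 0.737 in KO + IMQ. All groups overlapped. The log2 fold changes lay between -0.33 (KO against WT with IMQ, SE 0.42, adjusted p = 0.616) and 0.02 (IMQ in WT, SE 0.42, adjusted p = 0.981). Interferon-stimulated genes, the group to which Cxcl10 belongs, were higher with IMQ by fitted value in 17 of 19 in WT and 18 of 19 in KO, with median log2 fold changes of 1.11 and 0.75, but 0 of 19 passed in either genotype. Mice differed widely: Ifit1, for example, spanned 18.7 to 392 CPM in WT + IMQ and 3.24 to 459 in KO + IMQ. Without treatment it spanned 14.8 to 34.4 CPM in WT and 19.2 to 43.2 in KO.

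Ccl3, a ligand of Ccr1, fell with IMQ. In WT it went from 22.3, 41.8, 32.6, 30.1 and 29.7 CPM in untreated mice to 13, 14.7, 2.97, 5.51 and 10.2 with IMQ, a log2 fold change of -1.76 ± 0.45 (SE, adjusted p = 0.0366), or 3.38-fold lower. No IMQ-treated WT library reached the lowest untreated one. In KO it went from 14.4, 13.6, 42.3, 33.7 and 23.9 CPM to 18.1, 4.69, 15.8, 5.39 and 5.88, a log2 fold change of -1.36 ± 0.45 (adjusted p = 0.036), or 2.56-fold lower. There the groups overlapped, since KO + IMQ replicates 1 and 3 lay above 2 of the untreated libraries. Ccl3 differed by -0.29 ± 0.44 (adjusted p = 1) between untreated KO and WT and by 0.11 ± 0.44 (adjusted p = 0.889) between IMQ-treated KO and WT. The interaction was 0.40 ± 0.62 (adjusted p = 0.781).

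Ccl4, an attractant of monocytes and lymphocytes whose gene neighbours Ccl3, fell in both genotypes and by the most of the members. In WT the untreated libraries held 3.48, 7.53, 5.1, 5.26 and 5.33 CPM and the IMQ-treated ones 2.35, 1.44, 0.42, 0.88 and 1.54, a log2 fold change of -2.01 ± 0.45 (SE, adjusted p = 0.0225), or 4.04-fold lower. In KO the untreated libraries held 3.27, 2.74, 8.78, 6.1 and 4.17 CPM and the IMQ-treated ones 0.532, 0.575, 2.22, 0.74 and 0.829, a log2 fold change of -2.35 ± 0.46 (adjusted p = 0.00539), or 5.1-fold lower. The groups did not overlap in either genotype. Non-overlap was seen for 6.43% of tested genes in WT and 20.1% in KO. In WT, Ccl3 and Ccl4 were the members that did not overlap, and in KO they were Ccl4 and Ccl6. Between genotypes Ccl4 differed by -0.10 ± 0.43 (adjusted p = 1) in untreated and by -0.44 ± 0.44 (adjusted p = 0.532) in IMQ-treated mice, with an interaction of -0.34 ± 0.62 (adjusted p = 0.816).

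The WT calls for this pair did not hold in every fit. With the replicate number as a block, Ccl3 was at -1.76 (adjusted p = 0.0711) and Ccl4 at -1.95 (adjusted p = 0.0548) in WT, so that 0 members passed there, while both passed in KO. Of the 20 fits that each left out 1 library, Ccl3 lost its call in 9 in WT and in 6 in KO, and Ccl4 in 6 in WT and in 0 in KO. Leaving out WT + IMQ replicate 5, the library that lay among the untreated ones, gave -1.80 (adjusted p = 0.0224) for Ccl3 and -2.08 (adjusted p = 0.0113) for Ccl4 in WT. Leaving out KO + IMQ replicate 2 gave -1.15 (adjusted p = 0.0646) for Ccl3 and -2.18 (adjusted p = 0.00538) for Ccl4 in KO.

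Ccl3 and Ccl4 also varied together between mice of a group. After each group was centred on its mean, Pearson's r between their log2 CPM was 0.76 over 20 libraries (permutation p = 0.00113, adjusted p = 0.0169 over 15 pairs of members) and Spearman's rho was 0.69 (permutation p = 0.0039, adjusted p = 0.0585). Without WT + IMQ replicate 3 and KO + IMQ replicate 1, the libraries farthest from the median, r was 0.90. No other pair passed after adjustment, and 13 of the 15 had a positive r. The genes of a pair were measured in the same libraries with the same scaling. The ratio of Ccl3 to Ccl4 reads was 5.54 to 6.4 in untreated WT, 4.41 to 5.72 in untreated KO, 5.52 to 10.2 in WT + IMQ and 7.1 to 34 in KO + IMQ, where the value of 34 came from replicate 1.

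Ccl6, the most abundant member, fell with IMQ in KO. Untreated KO libraries held 1373, 1306, 1519, 1901 and 1302 CPM and IMQ-treated ones 233, 866, 484, 629 and 172, without overlap, for a log2 fold change of -1.64 ± 0.46 (SE, adjusted p = 0.0198), or 3.11-fold lower. In WT the levels were 1115, 1396, 1446, 1993 and 1842 CPM untreated and 587, 695, 132, 1139 and 1457 with IMQ, for -0.96 ± 0.46 (adjusted p = 0.222). The WT groups overlapped, because IMQ replicates 4 and 5 lay above the lowest untreated library. Without WT + IMQ replicate 5 the value was -1.29 (adjusted p = 0.0766). KO differed from WT by -0.07 ± 0.45 (adjusted p = 1) untreated and by -0.75 ± 0.45 (adjusted p = 0.313) with IMQ, and the interaction was -0.68 ± 0.64 (adjusted p = 0.669). The call in KO was lost in 2 of 20 fits, without untreated replicate 4 (adjusted p = 0.0514) and without IMQ replicate 5 (adjusted p = 0.0506).

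Genes of mature neutrophils were measured beside Ccl6. The summed level of the 14 listed genes was 30478 to 38118 CPM in untreated WT, 30454 to 37090 in untreated KO, 12981 to 39286 in WT + IMQ and 7961 to 29953 in KO + IMQ. In WT + IMQ replicate 3, the library with the lowest sum of that group, Ccl6 was at 132 CPM, the lowest of all libraries. In KO + IMQ the orders differed: replicate 1 had the lowest sum, 7961, with 233 CPM of Ccl6, and replicate 5 had the lowest Ccl6, 172 CPM, at a sum of 16345. With IMQ in KO, 5 of the 14 genes fell and 1 rose, where 23.5% of all tested genes passed in either direction. In WT 1 rose, where 3.95% passed. Csf3r, the receptor of granulocyte colony-stimulating factor, fell by 1.38 on the log2 scale (adjusted p = 0.0223) in KO, and Stfa2l1, a stefin of neutrophils, rose by 1.04 (adjusted p = 0.0456) in KO and by 1.49 (adjusted p = 0.0323) in WT. Of 12 early granule genes, 0 passed in either genotype. The part of cell maturity in the level of Ccl6 was not tested.

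Ccl9 was the member that rose, in KO. It was at 16.5, 28.1, 19.4, 20.2 and 15.7 CPM in untreated KO and at 137, 50.3, 28.8, 18.8 and 14.5 in KO + IMQ, a log2 fold change of 1.32 ± 0.43 (SE, adjusted p = 0.0334), or 2.5-fold higher. The groups overlapped, with KO + IMQ replicates 1, 2 and 3 above all untreated libraries and replicate 5 below them. In WT it was at 13.3, 16.7, 13.4, 18.3 and 24.5 CPM untreated and at 20.8, 21.5, 20.1, 19.5 and 20.8 with IMQ, for 0.25 ± 0.42 (adjusted p = 0.771). The spread within WT + IMQ was an SD of 0.78 CPM around 20.6, against an SD of 50.7 around 49.9 in KO + IMQ. KO exceeded WT by 1.28 ± 0.42 with IMQ (unadjusted p = 0.00702, adjusted p = 0.191), and the interaction was 1.07 ± 0.59 (adjusted p = 0.64). In untreated mice the difference was 0.21 ± 0.42 (adjusted p = 1).

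The call of Ccl9 was lost in 5 of the 20 fits that each left out 1 library. In 4 of these, without untreated KO replicate 1, 3, 4 or 5, the value stayed at 1.26 to 1.34 with an adjusted p between 0.0535 and 0.0713. Without KO + IMQ replicate 1 it was 0.49 (adjusted p = 0.212), the difference between KO and WT with IMQ was 0.46 (adjusted p = 0.648), and the interaction was 0.26 (adjusted p = 0.973). With the replicate number as a block the rise was 1.07 ± 0.44 (adjusted p = 0.0871). Monocyte markers were read beside it. In KO + IMQ the 10 listed genes summed to 3257, 1249, 282, 497 and 222 CPM, with a median of 497 against 470 in untreated KO. The sums were 325 to 503 in untreated WT, 396 to 608 in untreated KO and 318 to 708 in WT + IMQ. KO + IMQ replicates 1 and 2 thus lay above all of these, and replicates 3 and 5 lay below all untreated libraries. With IMQ in KO, 7 of the 10 rose, where 23.5% of all tested genes passed in either direction. The 7 included Ccr2, by 2.30 (adjusted p = 0.0117), and F13a1, by 2.12 (adjusted p = 0.0209), on the log2 scale. By fitted value 9 of the 10 were higher. Csf1r was lower, with means of 203 CPM in untreated KO and 99.4 in KO + IMQ (-1.03, adjusted p = 0.167). None of the 10 was at 0 in any group. The libraries with the highest and next highest Ccl9 were those with the highest and next highest monocyte sum, and KO + IMQ replicate 3, with 28.8 CPM of Ccl9, had a monocyte sum of 282. The part of monocytes in the level of Ccl9 was not tested.

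**Figure D3:**
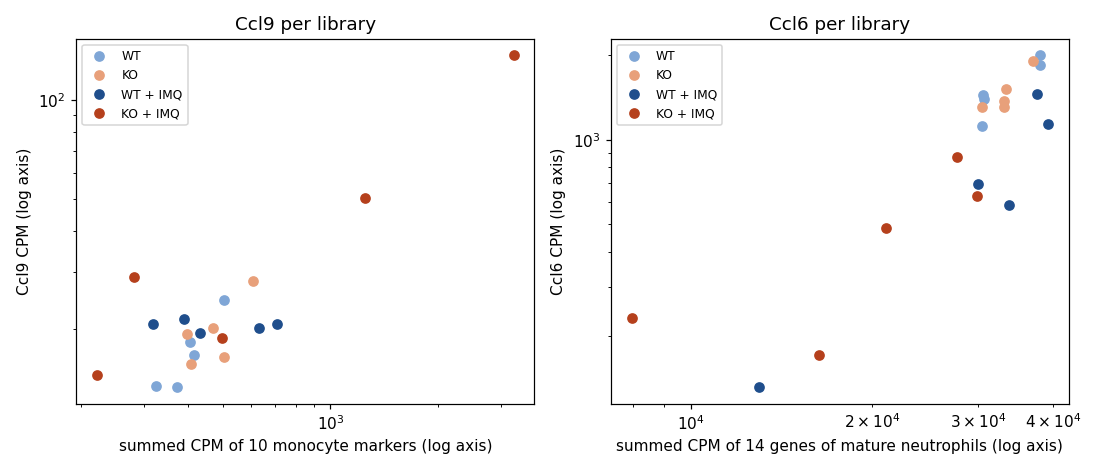
Each point is a library. The left panel sets Ccl9 against the summed CPM of 10 monocyte markers and the right panel Ccl6 against the summed CPM of 14 genes of mature neutrophils (all axes logarithmic). KO + IMQ replicate 1 stands at the top right on the left, with 137 CPM of Ccl9 and a monocyte sum of 3257, and the lowest Ccl6 level on the right, 132 CPM, is WT + IMQ replicate 3.

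Ccl6 and Ccl9, adjacent genes on one strand, did not vary together: r was 0.03 between their group-centred log2 CPM (permutation p = 0.925) and rho was 0.23 (permutation p = 0.38), with adjusted p = 0.925 and adjusted p = 0.713 over the 15 pairs. Without WT + IMQ replicates 3 and 5, r was 0.04. The ratio of Ccl6 to Ccl9 reads was 75 to 109 in untreated WT, 46.5 to 93.9 in untreated KO, 6.55 to 70.2 in WT + IMQ and 1.7 to 33.4 in KO + IMQ.

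**Figure D4:**
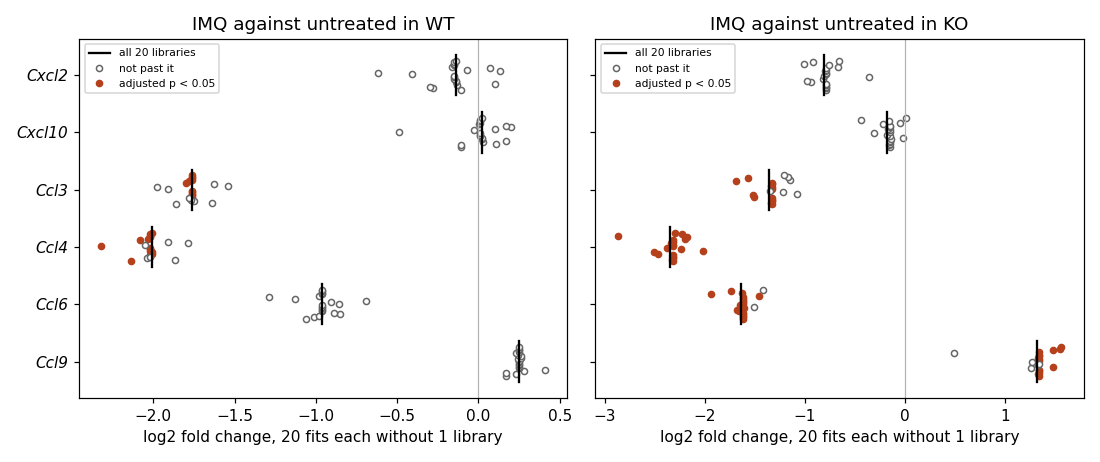
Log2 fold change of IMQ against untreated for the 6 tested chemokine genes in 20 fits, each without 1 library. Black bars show the value with all 20 libraries and filled points an adjusted p under 0.05. Ccl4 in KO stays filled throughout, and 5 of the 20 points of Ccl9 in KO are open, the one at 0.49 being the fit without KO + IMQ replicate 1.

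The genes whose log2 CPM followed each member most closely over the 20 libraries differed between members. For Cxcl2 they were the cytokine gene Osm (Pearson's r 0.89), the immediate early factor gene Egr3 (0.88) and Ccnl1 (0.88). For Cxcl10 they were the interferon-stimulated genes Mx2 (0.74) and Bst2 (0.73) and the macrophage lectin gene Siglec1 (0.73). For Ccl3 they were the phosphatase gene Dusp2 (0.96), Aup1 (0.93) and the stress factor gene Atf3 (0.87), and for Ccl4 they were Aup1 (0.92), the cyclooxygenase gene Ptgs2 (0.92) and Dnajb9 (0.91). Ccl6 was followed by Vnn3, the flagellin receptor gene Tlr5 and Amica1 (0.99 each), and Ccl9 by Ccdc109b (0.95), Cyp4f16 (0.95) and Crip1 (0.94). Differences between groups enter these values. After group centring, r was 0.94, 0.80 and 0.81 for the genes of Ccl3 and 0.78, 0.73 and 0.80 for those of Ccl4, in the order named. For the genes of Ccl9, Spearman's rho was lower than r, at 0.80, 0.68 and 0.70. All these genes were picked as the highest of all tested genes and are a description, in which libraries, depth and scaling are shared.

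Of 30 other chemokine ligand genes, 14 could be tested. With IMQ, 1 of the 14 fell in WT and 3 in KO, and 0 rose, beside 3.95% and 23.5% of all tested genes that passed in either direction. Cxcl12, the ligand that retains neutrophils in marrow through Cxcr4 and is made mainly by stromal cells, went from 122 ± 48.1 CPM (SD, n = 5) to 35.9 ± 30.8 in WT, a log2 fold change of -1.77 (adjusted p = 0.0469), and from 157 ± 76 to 40.4 ± 17.8 in KO, a change of -1.96 (adjusted p = 0.0117). Cxcl14 (-1.23, adjusted p = 0.0161) and Cx3cl1 (-2.24, adjusted p = 0.0331) fell in KO. The platelet chemokine genes Ppbp and Pf4, the next most abundant with Cxcl14, had changes of -3.05 (adjusted p = 0.0717) and -2.11 (adjusted p = 0.0551) in WT and of -2.13 (adjusted p = 0.0905) and -1.46 (adjusted p = 0.0758) in KO. Between genotypes, 0 of the 14 passed in untreated or in IMQ-treated mice.

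Of 11 chemokine receptors and scavengers, 9 were tested. Most bind products of the members, but Cxcr4 is the receptor of Cxcl12 and Ccrl2 binds chemerin without signalling. With IMQ, 0 passed in WT, where 3.95% of all tested genes did, whereas 4 fell in KO, where 23.5% of all tested genes passed in either direction. Cxcr2, the receptor of Cxcl1 and Cxcl2 and the most abundant of them, had mean levels of 1405 ± 316 CPM (SD, n = 5) in WT and 1670 ± 113 in KO without treatment, and of 1320 ± 631 in WT + IMQ and 900 ± 464 in KO + IMQ, and its change of -0.89 in KO did not pass (adjusted p = 0.0712). Ccr1, the receptor of Ccl3, Ccl6 and Ccl9, went from 525 ± 33.5 to 331 ± 124 CPM in KO (-0.67, adjusted p = 0.0494), and Cxcr4 from 455 ± 32.7 to 330 ± 56.2 (-0.46, adjusted p = 0.0424). Ccrl2 fell by 1.83 (adjusted p = 0.00802) and the Cxcl10 receptor Cxcr3 by 2.03 (adjusted p = 0.0155) on the log2 scale. Between genotypes 0 of the 9 passed.

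Cxcl2, Ccl3 and Ccl4 are known NF-kB targets, and 20 other target genes were read beside them. With IMQ, 1 of the 20 fell in WT and 7 in KO, and 0 rose, beside the same shares of 3.95% and 23.5% over all tested genes. Bcl2a1b, a survival gene, fell in both genotypes, by 1.05 (adjusted p = 0.0213) in WT and by 1.47 (adjusted p = 0.00383) in KO. Ptgs2, the inducible cyclooxygenase, went from 59.7 to 282 CPM in untreated KO to 1.14 to 21.3 in KO + IMQ, without overlap (-4.10, adjusted p = 0.00624), and its change of -2.72 in WT did not pass (adjusted p = 0.0551). Zc3h12a, an RNase that degrades inflammatory transcripts, fell by 0.81 (adjusted p = 0.0188) and Tnfaip2 by 0.71 (adjusted p = 0.0227) in KO. Between genotypes 0 of the 20 passed in either condition. Of 17 tested clock genes, 1 fell with IMQ in WT, Dbp by 1.01 (adjusted p = 0.0164), and 1 in KO, Per2 by 0.59 (adjusted p = 0.0488), and 0 differed between genotypes.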

How the data were processed

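Per the labels, RNA from bone marrow neutrophils was sequenced from 20 mice; depth ranges and the limits it sets are given above. The authors deposited raw read counts per gene, unscaled. Per the submitters' processing notes the files were made with bcl2fastq, STAR 2.7.8a and HTSeq 2.0.1 on mm10, whereas the study's methods name TopHat 2.1.1; the strand setting is not given in the sources used here.

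Groups came from the labels. The counts were fitted with edgeR 4.0.16 (R 4.3.3; TMM, filterByExpr by group, quasi-likelihood test, all 20 libraries in 1 model), and Cxcl1, under the filter, was tested by exact permutation. The 5 summary lines of each file were left out of library sizes. The script was tested on simulated data. Alternatives used DESeq2 1.42.0, and limma 3.58.1 on log2(CPM + 0.1) with CPM scaled by library size without TMM factors. Others used RLE factors or library size only, no filter or at least 10 counts in every library, only the groups compared, each library left out and a replicate block. Replicate numbers recur in each group, without a stated meaning. Same-numbered residuals correlated at 0.128 to 0.426 for IMQ against untreated in KO (5 of 5 above 0.1) and at 0.0728 to 0.384 in WT (4 of 5). They correlated at -0.441 to 0.206 between untreated and at -0.497 to 0.343 between IMQ-treated genotypes (2 of 5 each). Only KO had all 5 values above 0.1, which leaves a pairing possible there, but the main tests treated all libraries as unpaired. The replicate block was fitted over all 20 libraries in 1 model, and a fit that paired KO alone was not run. Within groups, libraries differed beyond counting error (chi-square per degree of freedom 18.8 to 748 over 40 pairs). The study's methods name a NovaSeq or a NextSeq sequencer without saying which libraries ran on which. Nothing says which libraries shared a batch. Named genes were all 7 members, up to 4 passing genes per list and comparison by smallest adjusted p, the 4 most abundant other ligands and receptors, and the 3 genes nearest to each member. Ifit1 was named as an example of spread. Members and lists were chosen with earlier results of these data known. Positions are from GENCODE M21. 1 result of the receptor list is not reported here.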

Additional observations from a re-analysis of the deposited data

Results flagged for a closer look

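In 3 of the 28 groups of 5 values, 1 library stood far from the other 4, and for normally distributed values chance alone gives about 1 in 20. The values were CPM without a log scale, so that rate may not hold here. Cxcl1 in untreated WT was at 0.212 CPM in replicate 5, from 14 reads, where the other libraries had 1 to 3. Cxcl2 in untreated KO was at 329 CPM in replicate 4, where the others lay between 80 and 149. Ccl4 in KO + IMQ was at 2.22 CPM in replicate 3, where the others lay between 0.532 and 0.829. Without that library the fall of Ccl4 with IMQ in KO was -2.87 on the log2 scale.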

How the results depend on the processing

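The 2 members called in WT with IMQ became 0 with the replicate block, which otherwise ended only the call of Ccl9 in KO among the members, and the 4 called in KO became 2, Ccl4 and Ccl6, with limma and with only the groups compared. With 1 library left out, members called ranged from 0 to 2 in WT and from 1 to 4 in KO. In KO, Ccl3 lost its call with library size only (-1.14, adjusted p = 0.0769), limma (-1.33, adjusted p = 0.0548) and only the groups compared (-1.36, adjusted p = 0.051), and Ccl9 with limma (0.97, adjusted p = 0.135), the block (1.07, adjusted p = 0.0871) and only the groups compared (1.31, adjusted p = 0.092). An alternative chosen after seeing the data left out both WT + IMQ replicate 3 and KO + IMQ replicate 1, the libraries with the largest TMM factors: Ccl9 was then at 0.51 (adjusted p = 0.171), and Cxcl2 with IMQ in WT (0.14), Ccl3 between genotypes with IMQ (-0.41) and the Ccl3 interaction (-0.11) turned sign. Cxcl10 with IMQ in WT turned sign with library size only (-0.06), at least 10 counts (-0.0047), limma (-0.19) and the block (-0.15), as did the interactions of Cxcl2 (0.11) and Cxcl10 (0.07) with limma. None of these sign changes touched a called value, and the cause was not tested.

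Counts over all tested genes moved more. Between untreated genotypes, 59 were called with only the groups compared. Between IMQ-treated genotypes, 311 were called by DESeq2, 16 with only the groups compared and 1259 without both libraries. With IMQ in WT, 1480 were called by DESeq2, 326 without a filter, 190 with the block, 186 with only the groups compared and 899 without both libraries. With 1 library left out, the counts ranged from 20 to 3129 between IMQ-treated genotypes (3129 without WT + IMQ replicate 3), from 48 to 1989 with IMQ in WT (48 without untreated WT replicate 2), from 1674 to 4499 with IMQ in KO and from 0 to 1 for the interaction.

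Left-out libraries turned the sign of uncalled values. Between untreated genotypes Cxcl2 ranged from -0.65 to 0.03, Cxcl10 from -0.29 to 0.01, Ccl4 from -0.41 to 0.06 and Ccl6 from -0.19 to 0.02. Between IMQ-treated genotypes Cxcl10 ranged from -0.60 to 0.18 and Ccl3 from -0.22 to 0.34. With IMQ in WT Cxcl2 ranged from -0.62 to 0.13 and Cxcl10 from -0.49 to 0.20, and in KO Cxcl10 from -0.44 to 0.01. The interactions of Cxcl10 ranged from -0.45 to 0.33 and of Ccl4 from -0.85 to 0.00039. At 0 to 14 reads per library, differences in Cxcl1 were not detectable at this depth.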
